A study of Rattus norvegicus with 16 samples.

Results

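Proteases that cut or trim the extracellular matrix, and the proteins that hold them in check, were followed in the rat right ventricle through 10 genes chosen by symbol from the 32754 gene entries counted in each library. The proteases were Mmp2, Mmp14, Mmp15, Adamts1, Adamts2 and Bmp1, and the inhibitors were Timp1, Timp2, Timp3 and Timp4. All 10 were in the files and all 10 passed the filter on low counts, which kept 13458 entries. The tissue came from female Sprague Dawley rats of 20 to 21 weeks that were wild type (WT) or ERalpha -/- (KO, a mutation of estrogen receptor alpha whose design is not given in the sources used here). Rats of each genotype were either banded at the pulmonary artery for 10 weeks (PAB), a constriction that makes the right ventricle pump against a higher pressure, or operated without the band (SHAM). RNA from 10 mg of ventricle gave 4 libraries for each genotype and surgery: 8 WT and 8 KO libraries, 4 of each banded. The labels do not state that the 4 libraries of a group are separate animals, so every p-value measures the spread between these libraries, which may be technical.

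Matrix metalloproteinases are zinc proteases made as inactive precursors. Mmp14, which sits in the cell membrane, activates secreted Mmp2 in a complex that also holds Timp2, so the same inhibitor can help or block the protease. Tissue inhibitors of metalloproteinases (TIMPs) plug the active site. In the heart this balance is known for its part in the turnover of fibrillar collagen during pressure overload, and Timp4 is the family member best known from cardiac tissue. Adamts2 and Bmp1 belong to the assembly side, since they trim the ends of procollagen before fibrils form, and Adamts1 cleaves proteoglycans such as versican.

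Timp1 and Timp4 were the members whose banded libraries did not overlap between genotypes, in opposite directions, so the 250 bases before the start of the 4 inhibitors are shown side by side as background. The windows are from RefSeq (build GRCr8) and read 5′ to 3′ on the gene's strand, which is the minus strand for all 4. Timp1 is at chrX:3771123-3771372, Timp2 at chr10:104089215-104089464, Timp3 at chr7:19459559-19459808 and Timp4 at chr4:149985205-149985454. Capitals mark matches to a GC box (GGGCGG on either strand, so also CCGCCC) and to TGAGTAA, a variant of the AP-1 element.
Timp1: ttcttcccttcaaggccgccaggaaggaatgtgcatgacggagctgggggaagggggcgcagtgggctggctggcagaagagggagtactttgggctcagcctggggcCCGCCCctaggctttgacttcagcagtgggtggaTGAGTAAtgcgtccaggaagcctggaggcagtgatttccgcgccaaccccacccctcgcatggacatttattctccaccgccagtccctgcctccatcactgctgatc
Timp2: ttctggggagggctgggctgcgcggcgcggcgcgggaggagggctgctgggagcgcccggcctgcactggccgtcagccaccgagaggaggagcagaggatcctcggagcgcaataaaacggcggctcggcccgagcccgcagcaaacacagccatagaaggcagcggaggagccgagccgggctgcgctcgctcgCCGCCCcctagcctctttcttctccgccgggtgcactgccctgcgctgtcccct
Timp3: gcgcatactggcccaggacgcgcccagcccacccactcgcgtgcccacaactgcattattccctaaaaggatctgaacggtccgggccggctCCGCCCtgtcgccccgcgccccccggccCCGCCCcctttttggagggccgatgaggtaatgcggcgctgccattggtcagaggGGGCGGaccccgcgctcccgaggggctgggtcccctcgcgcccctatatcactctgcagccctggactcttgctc
Timp4: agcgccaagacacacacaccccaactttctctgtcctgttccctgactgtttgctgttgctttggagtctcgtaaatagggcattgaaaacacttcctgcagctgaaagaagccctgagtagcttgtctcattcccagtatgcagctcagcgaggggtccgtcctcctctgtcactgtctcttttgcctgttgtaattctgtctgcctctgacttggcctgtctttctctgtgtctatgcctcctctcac
The Timp1 window held 1 GC box match and 1 match to TGAGTAA. Windows of Timp2 and Timp3 held 1 and 3 GC box matches, and the window of Timp4 held none. GC content was 61.2% for Timp1, 72.0% for Timp2, 69.6% for Timp3 and 50.8% for Timp4, beside a median of 51.2% over 33469 windows of the same length. Both strands were searched for every motif. A GC box match was present in 30.5% of those windows, TGAGTAA in 2.38%, the AP-1 element TGAGTCA in 4.05%, TATAAA in 12.9%, and GGTCANNNTGACC, the palindromic estrogen response element, in 0.0239%. RefSeq windows were found for 7 of the 10 members, namely the 4 inhibitors, Mmp15, Adamts1 and Adamts2. No window was found for Mmp2, Mmp14 and Bmp1. None of the 7 held TGAGTCA or GGTCANNNTGACC, and Adamts1 alone held TATAAA. These matches describe letters in the windows only.

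Library totals ranged from 22168110 to 34718633 counts. Esr1, which encodes ERalpha, had 70 to 139 counts in the WT libraries and 7 to 21 in the KO libraries. Markers of cardiomyocytes (9 of 10 listed genes in the files) summed to at least 31979 counts per 1000000 (CPM, scaled to the TMM-adjusted library total) in every library, and none of the 9 was at 0 in all libraries of a group. SHAM libraries WT SHAM 2, WT SHAM 3 and KO SHAM 4 stood apart: Adipoq, the adipocyte hormone adiponectin, was at 13.2 to 56.5 CPM of the total count in these 3 and at 0.0451 or less in the other 5. Results are therefore given with all 16 libraries and without these 3, which leaves 2 WT SHAM and 3 KO SHAM libraries. A banded library, KO PAB 3, had 5.51 CPM of the total count and was kept because the rule concerned SHAM libraries. Summed fibroblast markers (9 of 10 in the files) were 2367 to 3841 CPM in the 3 libraries, 1183 to 1294 CPM in the other 5 SHAM libraries and 975 to 2241 CPM in the PAB libraries. Mesothelial markers (8 of 8) summed to 79.4 to 148 CPM in the 3, 21.3 to 47.4 CPM in the other 5 and 22.1 to 29.8 CPM after banding. Macrophage and monocyte markers (9 of 10) summed to 232 to 333 CPM, 99.4 to 162 CPM and 131 to 363 CPM in the same order. Smooth muscle and pericyte markers (10 of 10) summed to 2314 to 4213 CPM, 1775 to 2290 CPM and 1890 to 2527 CPM, and atrial and valve or cartilage markers (8 of 8) to 46.8 to 107 CPM, 3.55 to 9.31 CPM and 5.57 to 28.8 CPM. Cardiomyocyte markers went the other way, at 31979 to 43654 CPM in the 3, 48509 to 58203 CPM in the other 5 and 48475 to 64874 CPM after banding. The adipocyte markers Plin1 and Retn were at 0 in all 5 other SHAM libraries, although the summed adipocyte list (9 of 9 genes), which includes the widely expressed Fabp4, overlapped at 244 to 412 CPM against 272 to 344 CPM.

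Mmp2, the gelatinase that degrades denatured collagen and basement membrane, spread widely among the SHAM libraries. Levels in WT SHAM libraries 1 to 4 were 69.4, 259, 145 and 61.1 CPM, and KO SHAM libraries 1 to 4 gave 82.6, 76.8, 83.7 and 185 CPM. Banded WT libraries, in the same order, gave 81.6, 112, 82.6 and 65.7 CPM and banded KO libraries 55.5, 89.0, 144 and 94.0 CPM. The 3 highest values belonged to the 3 SHAM libraries high in Adipoq, and KO PAB 3 came next. Outside these 4 libraries the level of Mmp2 lay between 55.5 and 112 CPM.

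Mmp14, the membrane-bound activator of Mmp2, showed the same 3 high SHAM libraries. Under sham surgery the 4 WT libraries, in label order, had 17.5, 47.4, 23.1 and 16.6 CPM and the 4 KO libraries 12.0, 17.8, 16.7 and 27.5 CPM. For WT PAB the 4 values were 13.9, 21.9, 15.9 and 19.2 CPM and for KO PAB 9.49, 12.7, 20.2 and 13.8 CPM. The banded KO libraries held the lowest single value, 9.49 CPM in KO PAB 1, but overlapped with every other group.

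Mmp15, a membrane-bound metalloproteinase of the same subfamily as Mmp14, did not share that pattern. Sham-operated WT libraries 1 to 4 were measured at 42.4, 31.9, 39.6 and 68.0 CPM and KO libraries at 42.8, 52.1, 54.6 and 45.3 CPM. With pressure load, WT libraries 1 to 4 had 41.3, 55.3, 48.4 and 44.4 CPM and KO libraries 1 to 4 had 50.4, 42.4, 36.1 and 33.8 CPM. Its highest value was in WT SHAM 4 and its lowest in WT SHAM 2, so both ends of its range lay in WT SHAM.

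Adamts1, the versican-cleaving protease, spread widely within the WT groups. In WT SHAM libraries 1 to 4 it was at 236, 66.4, 271 and 267 CPM, and in KO SHAM libraries 1 to 4 at 289, 205, 170.0 and 197 CPM. After banding the levels were 413, 149.7, 190.2 and 247 CPM in WT libraries 1 to 4 and 106, 119.7, 179.7 and 146 CPM in KO libraries 1 to 4. WT SHAM 2 was far below the rest of its group, and the 4 KO PAB libraries lay low but reached into the range of KO SHAM and WT PAB.

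Adamts2, which removes the amino-terminal propeptide of fibrillar procollagens, followed the pattern of Mmp2. Levels in WT SHAM libraries 1 to 4 were 16.7, 47.1, 32.8 and 17.0 CPM, and KO SHAM libraries 1 to 4 gave 15.1, 16.5, 19.6 and 44.4 CPM. Banded WT libraries, in the same order, gave 18.8, 29.8, 19.0 and 15.8 CPM and banded KO libraries 13.3, 18.7, 29.9 and 22.1 CPM. The 3 highest levels were again those of WT SHAM 2, KO SHAM 4 and WT SHAM 3, and KO PAB 3 and WT PAB 2 came next.

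Bmp1, the procollagen C-proteinase, was high in WT SHAM 2 and KO SHAM 4 but less so in WT SHAM 3. Under sham surgery the 4 WT libraries, in label order, had 12.9, 24.5, 16.3 and 11.5 CPM and the 4 KO libraries 11.4, 10.5, 11.5 and 22.2 CPM. For WT PAB the 4 values were 12.4, 14.6, 11.0 and 8.79 CPM and for KO PAB 9.72, 11.8, 15.1 and 19.0 CPM. KO PAB 4, at 19.0 CPM, was above WT SHAM 3, so that Bmp1 was not highest in all 3 of the libraries set apart.

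Timp1, the inducible inhibitor of the family, had the fewest counts behind it of the 10 members, 65 to 486 per library. Sham-operated WT libraries 1 to 4 were measured at 4.89, 10.2, 10.1 and 2.67 CPM and KO libraries at 15.1, 4.41, 5.69 and 11.4 CPM. With pressure load, WT libraries 1 to 4 had 7.65, 6.20, 3.39 and 3.20 CPM and KO libraries 1 to 4 had 10.7, 11.7, 14.9 and 9.00 CPM. All 4 KO PAB libraries were above all 4 WT PAB libraries, while SHAM libraries of both genotypes spread over most of the range. The single highest value, 15.1 CPM, was in KO SHAM 1.

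Timp2, which both blocks Mmp2 and takes part in its activation, again gave the 3 highest levels in the SHAM libraries high in Adipoq. In WT SHAM libraries 1 to 4 it was at 82.8, 199, 131 and 74.9 CPM, and in KO SHAM libraries 1 to 4 at 97.7, 85.1, 86.3 and 153 CPM. After banding the levels were 94.1, 109, 73.3 and 66.4 CPM in WT libraries 1 to 4 and 83.8, 91.3, 124 and 97.1 CPM in KO libraries 1 to 4. The other 13 libraries lay between 66.4 and 124 CPM, with KO PAB 3 the highest of them.

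Timp3, the inhibitor that binds to the matrix itself and also blocks aggrecan-cleaving ADAMTS proteases, had the same order at the top. Levels in WT SHAM libraries 1 to 4 were 46.8, 138, 74.5 and 50.1 CPM, and KO SHAM libraries 1 to 4 gave 41.3, 49.6, 46.7 and 98.8 CPM. Banded WT libraries, in the same order, gave 54.3, 71.6, 48.2 and 60.8 CPM and banded KO libraries 45.1, 49.5, 62.0 and 53.5 CPM. Outside the 3 libraries it lay between 41.3 and 71.6 CPM.

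Timp4 was the member in which 1 group stood apart. Under sham surgery the 4 WT libraries, in label order, had 16.8, 17.7, 14.3 and 29.4 CPM and the 4 KO libraries 12.2, 24.8, 21.8 and 15.5 CPM. For WT PAB the 4 values were 12.2, 24.5, 18.8 and 18.2 CPM and for KO PAB 11.4, 11.7, 8.28 and 8.86 CPM. The 4 KO PAB libraries were the 4 lowest of all 16, below the lowest library of every other group, which was 12.2 CPM. Mean levels were 10.1 ± 1.75 CPM for KO PAB, 18.6 ± 5.75 CPM for KO SHAM, 18.4 ± 5.0 CPM for WT PAB and 19.5 ± 6.71 CPM for WT SHAM (SD, n = 4 each).

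**Figure D1:**
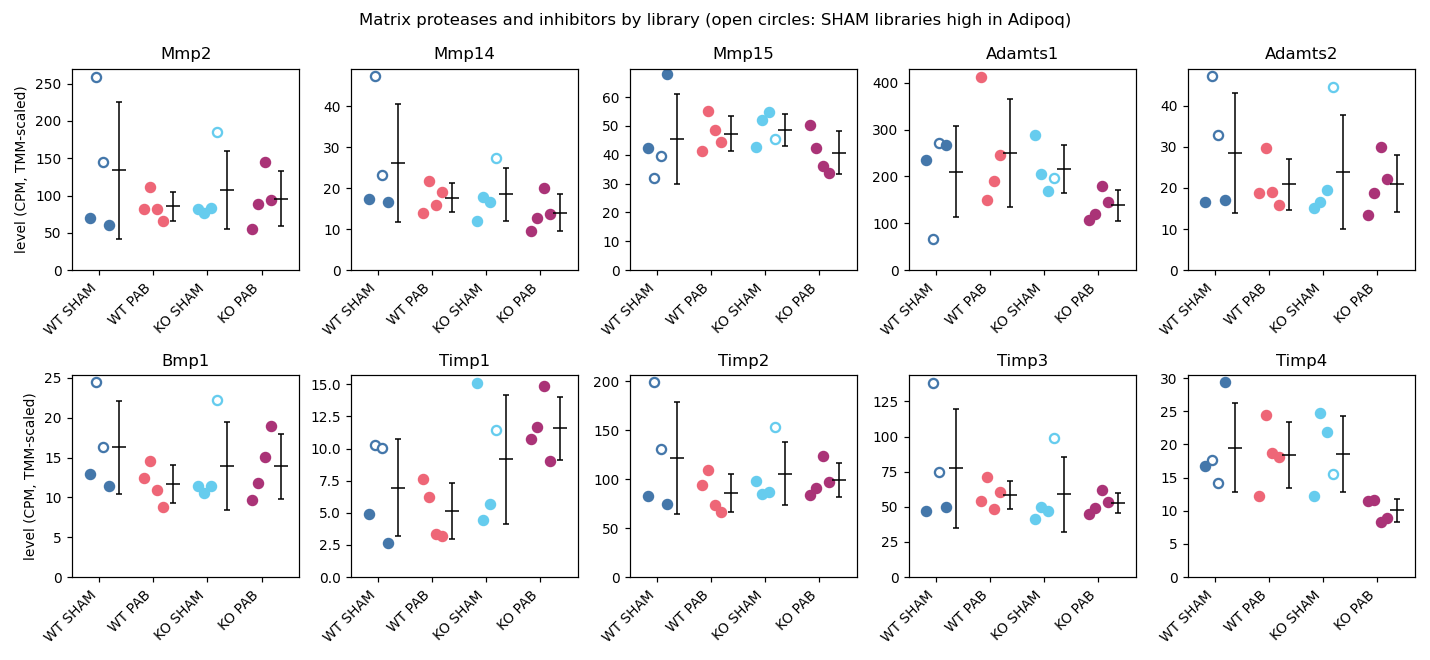
Level of each of the 10 genes in CPM (vertical axis, from 0) in the 4 groups, 1 circle per library, with mean ± SD (n = 4) as a bar beside the circles and open circles for the 3 SHAM libraries high in Adipoq. The open circles lie above the other SHAM libraries for Mmp2, Mmp14, Adamts2, Bmp1, Timp2 and Timp3, and the KO PAB circles of Timp4, at 8.28 to 11.7 CPM, lie below all others.

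Counted over members, 6 of 10 (Mmp2, Mmp14, Adamts2, Bmp1, Timp2 and Timp3) were higher in each of the 3 SHAM libraries high in Adipoq than in every one of the other 5, against 16.4% of all tested entries. Against all 13 other libraries the count was 5 of 10, the same genes less Bmp1, beside 7.35% of all tested entries. These 3 libraries were set apart by Adipoq and not by a label, so these counts carry no test.

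The first comparison asked how 10 weeks of pressure load changed the protease and inhibitor transcripts, averaged over genotypes. With all 16 libraries, the fitted log2 fold change was below 0 for all 10 members, from -0.48 for Timp4 and -0.48 for Mmp14 to -0.06 for Timp1, with a median of -0.29 beside -0.02 over all tested entries. None of the 10 passed the test (edgeR's quasi-likelihood test, Benjamini-Hochberg adjusted p below 0.05 over all tested entries), where 5.09% of all tested entries passed. At an unadjusted p below 0.05 edgeR gave 1 member and DESeq2 gave 2, and DESeq2 called 0. The share of all tested entries at that unadjusted cut is not given here, in this or the later comparisons. Counts of members at it therefore have no background to be read against. Timp4 had the smallest adjusted p of the 10, with a log2 fold change of -0.48 (SE 0.19, edgeR adjusted p = 0.140). Without the 3 SHAM libraries the averaged change was above 0 for 6 members, namely Mmp2 (0.32), Adamts2 (0.31), Bmp1 (0.13), Timp1 (0.45), Timp2 (0.14) and Timp3 (0.24). The median was then 0.14 beside 0.01 over all tested entries. Still 0 of 10 passed, against 7% of all tested entries, and edgeR gave 2 at an unadjusted p below 0.05. Timp4 kept its direction at -0.64 (SE 0.21, edgeR adjusted p = 0.0910). The fibroblast, mesothelial, macrophage, smooth muscle, atrial and cardiomyocyte sums given above for the 3 libraries moved with this change of sign, and their part in it was not tested. In bulk tissue, fewer cells of a type and less RNA per cell cannot be told apart.

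Within WT, banding was fitted below 0 for 8 of the 10 members with all libraries, the lowest being Mmp2 at -0.65 (SE 0.44, edgeR adjusted p = 0.563), and above 0 for Mmp15 and Adamts1. Without WT SHAM 2, WT SHAM 3 and KO SHAM 4, 8 of the 10 changed sign, all but Timp4 and Bmp1, and Mmp2 was at 0.39 (SE 0.30, edgeR adjusted p = 0.791). Several of the 8 were within 1 SE of 0 in at least 1 fit, and Adamts1 in both, at 0.25 (SE 0.38) and -0.01 (SE 0.35). The share of all tested entries that changed sign was not computed, here or in the other comparisons. Entries fitted above 0 were 6329 of 13458 with all libraries and 7132 of 13583 without the 3. Timp4 was at -0.08 (SE 0.26) with all libraries and at -0.32 (SE 0.32) without the 3. No member passed edgeR's test in either set, where 0.00743% and 0% of all tested entries passed, and none was at an unadjusted p below 0.05 by edgeR in either set or by DESeq2 with all libraries. For all 10 members the WT SHAM and WT PAB libraries overlapped, also without the 3, while 4.93% and 17.3% of all tested entries showed no overlap in the 2 sets.

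Within KO, Timp4 was lower in all 4 banded libraries than in any sham library. Its level was 10.1 ± 1.75 CPM in KO PAB against 18.6 ± 5.75 CPM in KO SHAM (SD, n = 4 each), a log2 fold change of -0.88 (SE 0.27, edgeR adjusted p = 0.131). DESeq2 gave the same difference an adjusted p of 0.0377, and over all alternatives the change lay between -1.04 and -0.71 with adjusted p from 0.0377 to 0.312. Without KO SHAM 4 and both WT SHAM libraries high in Adipoq it was -0.96 (SE 0.29, edgeR adjusted p = 0.0809). Adamts1 was at -0.64 (SE 0.38, edgeR adjusted p = 0.454) and Timp1, the 1 member fitted above 0, at 0.33 (SE 0.44, edgeR adjusted p = 0.786). By edgeR 0 of 10 passed and 1 was at an unadjusted p below 0.05, in both sets, beside 0.632% of all tested entries past the test with all libraries and 2.53% without the 3. DESeq2 called 1, Timp4, where it called 3.79% of all entries to which it gave an adjusted p. Timp4 was also the 1 member of 10 whose groups did not overlap, in both sets, beside 10.2% of all tested entries with all libraries and 22% without the 3. Leaving out the 3 libraries changed the sign of 5 members, Mmp2, Timp2, Timp3, Adamts2 and Bmp1, each of which was then fitted above 0.

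**Figure D2:**
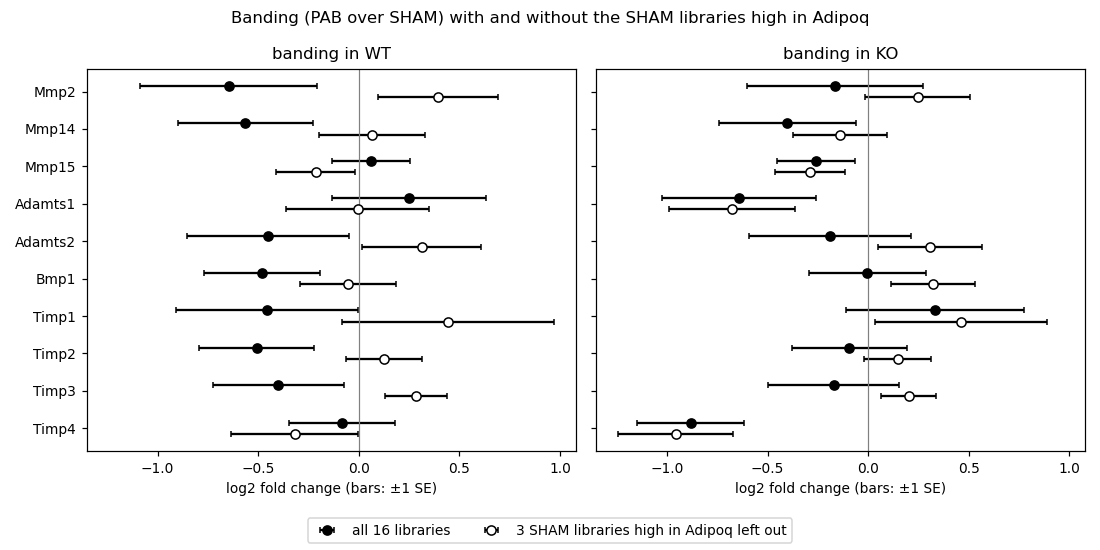
Log2 fold change of PAB over SHAM (horizontal axis) in WT (left) and KO (right) for the 10 genes, with bars of ±1 SE, filled circles for all 16 libraries and open circles with the 3 SHAM libraries high in Adipoq left out. In WT, 8 of 10 pairs of circles lie on opposite sides of 0, several with a circle within 1 SE of 0. In KO both Timp4 circles lie at -0.88 and -0.96.

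Genotype was compared next, first under sham surgery, where it bears on what loss of ERalpha changed without pressure load. With all libraries the members lay between -0.50 for Mmp14 and 0.39 for Timp1, 0 of 10 passed edgeR's test or an unadjusted p below 0.05 (DESeq2 also 0 and 0), and 0.00743% of all tested entries passed. No member was without overlap, beside 1.26% of all tested entries. Leaving out the 3 libraries changed the sign of Mmp2, Mmp15, Timp2, Adamts1 and Adamts2. Timp1 was then at 1.17 (SE 0.55, edgeR adjusted p = 0.997), with 15.1 CPM in KO SHAM 1 beside 4.41 and 5.69 CPM in KO SHAM 2 and 3. In that smaller set 0 of 10 passed edgeR's test or an unadjusted p below 0.05, beside 0.00736% of all tested entries past the test. Mmp2 and Timp2 were higher in the 3 KO SHAM than in the 2 WT SHAM libraries without overlap, 2 of 10 members beside 20.6% of all tested entries.

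Under pressure load the largest fitted differences between genotypes were those of Timp1, higher in KO, and of Timp4 and Adamts1, lower in KO. Timp1 was 11.6 ± 2.47 CPM in KO PAB and 5.11 ± 2.18 CPM in WT PAB, and Timp4 was 10.1 ± 1.75 and 18.4 ± 5.0 CPM in the same groups (SD, n = 4 each). Neither gene's libraries overlapped between the genotypes. The log2 fold change of KO over WT was 1.18 for Timp1 (SE 0.45, edgeR adjusted p = 0.999) and -0.87 for Timp4 (SE 0.27, edgeR adjusted p = 0.999). Adamts1 was at -0.86 (SE 0.38, edgeR adjusted p = 0.999), with overlap between groups. These 3 were the members at an unadjusted p below 0.05, by edgeR and by DESeq2, a count with no share of all tested entries beside it. By either tool 0 of 10 passed the adjusted test, which 0.00743% of all tested entries passed by edgeR. Without overlap there were 2 of 10 members, beside 3.31% of all tested entries. The other members lay between -0.34 (Mmp14) and 0.25 (Bmp1). Since no SHAM library enters this comparison, leaving out the 3 changed the sign of 0 members and moved the values by little, to 1.19 for Timp1, -0.87 for Timp4 and -0.85 for Adamts1, each with an edgeR adjusted p of 0.685, and 0 of 10 members passed beside 0.00736% of all tested entries. Leaving out KO PAB 3 as well, which holds the highest Timp1 and the lowest Timp4 of its group, gave 1.03 for Timp1 and -0.79 for Timp4, both with an edgeR adjusted p of 0.834.

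Expressed per library as counts of Timp1 over counts of Timp4, the KO PAB libraries 1 to 4 gave 0.938, 1.00, 1.80 and 1.02. WT PAB libraries gave 0.626, 0.254, 0.180 and 0.176, all below the lowest KO PAB value. That separation follows from the lack of overlap of each gene between KO PAB and WT PAB, and adds nothing to it. SHAM libraries covered most of that span, at 0.0910 to 0.706 in WT and 0.178 to 1.23 in KO. The ratio compares each gene with itself across libraries and says nothing of which transcript was more abundant, because the counts are not per transcript length. Macrophage and monocyte markers (9 of 10 genes) summed to 146 to 363 CPM in KO PAB and 131 to 165 CPM in WT PAB, the high end being KO PAB 3. Fibroblast markers summed to 975 to 2241 CPM in KO PAB and 999 to 1611 CPM in WT PAB, and endothelial markers (7 of 8) to 458 to 568 CPM and 476 to 563 CPM. For genotype in PAB the fitted log2 fold change was above 0 for 9 of 9 macrophage and monocyte markers (0.39 to 0.74). It was above 0 for 2 of 10 smooth muscle and pericyte markers (median -0.35, from -1.03 to 0.04). The same held for 7 of 9 fibroblast (median 0.23), 1 of 7 endothelial (-0.18), 1 of 8 mesothelial (-0.64) and 7 of 8 tested adipocyte markers (1.57). Cardiomyocyte markers gave 5 of 9 and atrial and valve or cartilage markers 4 of 7, beside 6628 of 13458 tested entries. From each of these lists edgeR called 0. The part of these markers in the genotype difference was not tested.

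**Figure D3:**
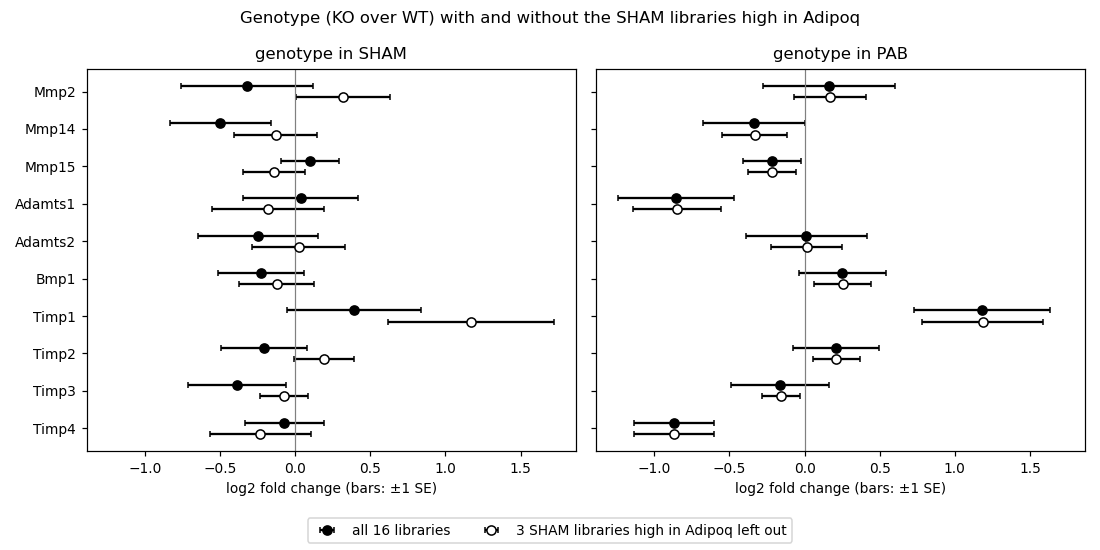
Log2 fold change of KO over WT (horizontal axis) under SHAM (left) and PAB (right) for the 10 genes, with bars of ±1 SE, filled circles for all 16 libraries and open circles with the 3 SHAM libraries high in Adipoq left out. Under PAB the 2 circles of each gene nearly coincide, with Timp1 at 1.18 and 1.19, Timp4 at -0.87 in both and Adamts1 at -0.86 and -0.85.

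Whether the response to load depended on genotype was tested as the change in KO less the change in WT. Timp4 had an interaction of -0.80 (SE 0.37), Timp1 of 0.79 (SE 0.63) and Adamts1 of -0.89 (SE 0.54), each with an edgeR adjusted p of 0.999. By edgeR 0 of 10 members passed, and 1, Timp4, was at an unadjusted p below 0.05, counts that DESeq2 shared, while 0% of all tested entries passed. Without the 3 SHAM libraries 0 of 10 passed and 0 were at an unadjusted p below 0.05, again beside 0% of all tested entries. Timp4 was then at -0.64 (SE 0.43) and Timp1 at 0.02 (SE 0.68), both with an edgeR adjusted p of 1.00. The change of Timp4 with banding was -0.88 in KO and -0.08 in WT, and the test of the difference between them did not pass. The banding, genotype and interaction comparisons share libraries: KO PAB enters both the change of Timp4 with banding in KO and its difference between genotypes under load.

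Other proteases and inhibitors were read from a list of 82 genes (further MMP, ADAM, ADAMTS and ADAMTS-like genes, tolloid proteases, cathepsins, plasminogen activators and their inhibitors), of which 80 were in the files and 62 were tested. Banding averaged over genotypes called 2 higher and 1 lower, 3 of 62, beside the 5.09% of all tested entries given above, and the list's median log2 fold change was -0.05. Adamtsl5, an ADAMTS-like protein that lacks the protease domain, rose with a log2 fold change of 0.78 (SE 0.18, edgeR adjusted p = 0.0235). Adamtsl5 in SHAM libraries 1 to 4 was at 3.36, 2.84, 3.47 and 4.81 CPM in WT and 2.17, 3.61, 3.06 and 4.86 CPM in KO, and in PAB libraries at 8.07, 5.62, 4.89 and 3.93 CPM in WT and 7.83, 6.90, 5.13 and 6.28 CPM in KO. All 4 KO PAB libraries were above all 4 KO SHAM libraries, where 10.2% of all tested entries showed no overlap in either direction. In WT the lowest PAB library, at 3.93 CPM, was below the highest SHAM library. The call held in 20 of 22 alternatives, with adjusted p up to 0.0528, and was lost without WT PAB 1 or without KO PAB 2. Adamts19, a secreted ADAMTS protease, rose by 0.56 on the log2 scale (SE 0.15, edgeR adjusted p = 0.0429) and Adam23, a membrane protein of the ADAM family without protease activity, fell by 0.79 (SE 0.21, edgeR adjusted p = 0.0429). Each of these calls held in 7 of 22 alternatives, and without the 3 SHAM libraries the changes were 0.39 and -0.43 and were not called.

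In that smaller set 63 genes of the list were tested and 3 were called, all higher, beside 7% of all tested entries. Adamtsl5 was at 0.81 (SE 0.19, edgeR adjusted p = 0.0333), Adamtsl2, an ADAMTS-like protein that binds microfibrils, at 1.67 (SE 0.40, edgeR adjusted p = 0.0355), and Prss23, a secreted serine protease, at 1.06 (SE 0.25, edgeR adjusted p = 0.0343). Adamtsl2 was 13.5, 6.78, 3.96 and 3.74 CPM in the WT PAB libraries and 9.64, 5.94, 18.5 and 17.1 CPM in the KO PAB libraries, where the other 5 SHAM libraries lay between 2.22 and 3.69 CPM. Every PAB library was above those 5 for Adamtsl2, by a wide margin in WT PAB 1, KO PAB 3 and KO PAB 4 and by a small one in WT PAB 3 and 4. The share of all tested entries that separate in this way over both genotypes was not computed. Within WT and within KO it was 17.3% and 22% in that set, in either direction. The 3 SHAM libraries left out, of which WT SHAM 2 was highest at 8.02 CPM, were all above WT PAB 3 and 4. With all libraries Adamtsl2 and Prss23 were not called, and over the 22 alternatives they were called in 6 and 3. In the other 5 comparisons edgeR called 0 of 62 with all libraries. Without the 3 it called 1 of 63 within KO, Adamtsl5 at 1.16 (SE 0.26, edgeR adjusted p = 0.0413), and 0 of 63 in the other 4.

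How the members varied together was described over the 13 libraries left without the 3, on log2(CPM + 1). All points share library depth and scaling, and the values are descriptions with no p. Mmp2 followed Adamts2 (r = 0.91, rho = 0.84, and r = 0.81 without the 2 libraries farthest from the median) and Timp2 (r = 0.82, rho = 0.75, and 0.81). Adamts2 and Bmp1, the 2 procollagen-trimming proteases, gave r = 0.72 (rho = 0.77, and 0.71). Mmp2 and its activator Mmp14 gave r = 0.45 (rho = 0.26, and -0.05), a relation that rested on those 2 libraries. Over all 16 libraries the same pair gave r = 0.83.

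Another pattern set Timp4, and less closely Mmp15, against Timp1. Mmp15 and Timp4 gave r = 0.87 (rho = 0.82, and 0.81), and Timp1 and Timp4 gave r = -0.82 (rho = -0.79, and -0.78). Mmp15 and Timp1 gave a weaker r of -0.60 (rho = -0.53, and -0.47). Over all 16 libraries the r values of these pairs, in the same order, were 0.72, -0.76 and -0.60. Group means were not removed, so the difference of KO PAB in Timp1 and Timp4 given above enters these values. Libraries with little Timp4 and much Timp1 were the 4 of KO PAB and, outside that group, KO SHAM 1, at 12.2 CPM of Timp4 and 15.1 CPM of Timp1. WT SHAM 4 lay at the other end, with the highest Timp4 (29.4 CPM), the highest Mmp15 (68.0 CPM) and the lowest Timp1 (2.67 CPM) of all libraries.

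**Figure D4:**
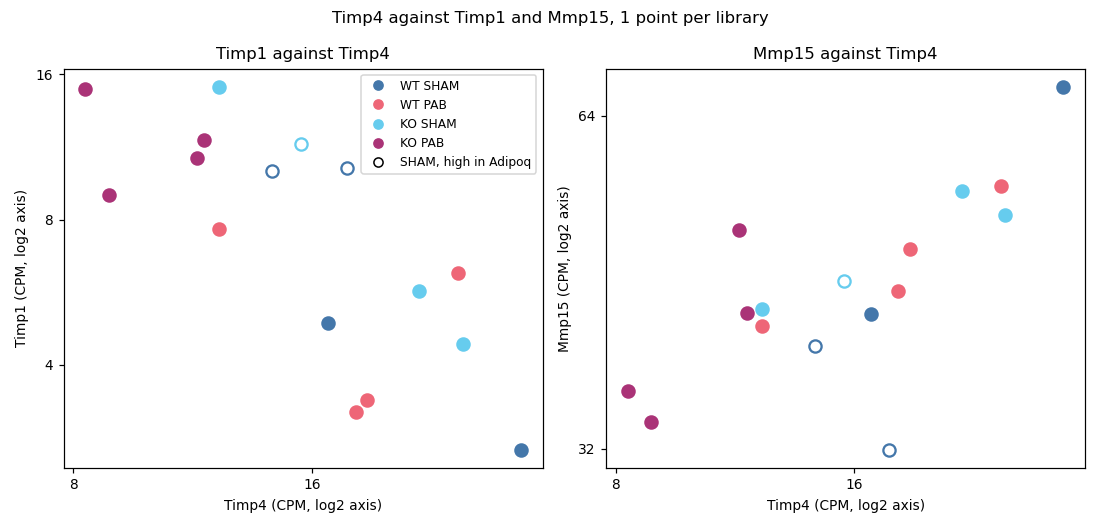
Timp1 (left) and Mmp15 (right) against Timp4 in CPM on log2 axes, 1 circle per library coloured by group, with open circles for the 3 SHAM libraries high in Adipoq. Timp1 lies lower and Mmp15 higher in libraries with more Timp4 (r = -0.82 and 0.87 over the 13 filled circles), with KO PAB at the low-Timp4 end of both panels.

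Summed fibroblast markers were set beside the members, since fibroblasts are known as the main source of interstitial matrix in the heart. Over the 13 libraries the sum followed Mmp2 (r = 0.94, rho = 0.91, and r = 0.85 without the 2 farthest libraries), Adamts2 (r = 0.90) and Timp2 (r = 0.85) closely. Bmp1 gave r = 0.76, Timp3 0.55, Mmp14 0.45 and Timp4 -0.35. For Mmp14 the value without the 2 farthest libraries was -0.04. Mmp14 gave r = 0.71 with the endothelial sum (rho = 0.70, and 0.89 without the 2 farthest). Timp3 gave r = 0.70 with the endothelial sum (rho = 0.65, and 0.57) and r = 0.79 with the atrial and valve or cartilage sum (rho = 0.67, and 0.60). With that last sum Adamts2 also gave r = 0.79 (rho = 0.75, and 0.58) and Mmp2 r = 0.71 (rho = 0.75, and 0.45). Timp4 gave r = 0.77 with the adipocyte sum (rho = 0.79, and 0.59). In each of these 13 libraries 1 to 6 of the 9 adipocyte genes were at 0. KO PAB 3, with the most Adipoq of the 13 (5.51 CPM of the total count), had a sum of 227 CPM, near the low end. The adipocyte sum is therefore no clear measure of adipocytes here. The list of fibroblast markers holds collagens and other matrix genes and none of the 10 members.

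**Figure D5:**
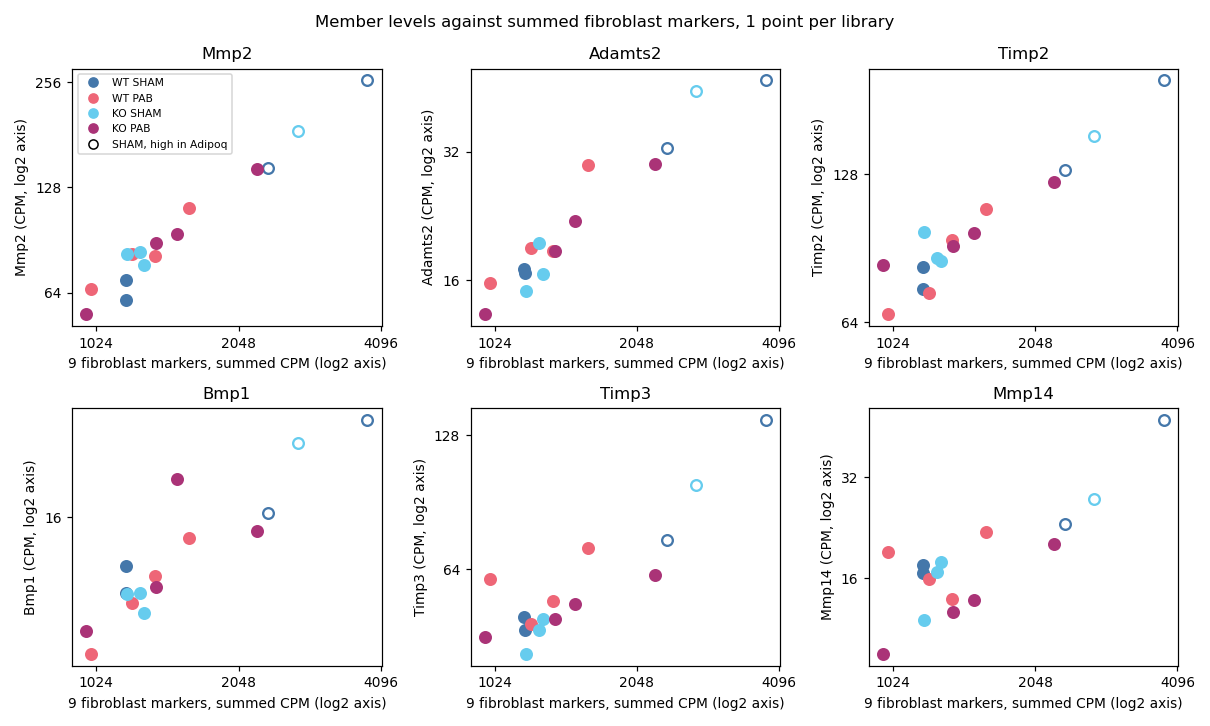
Level of Mmp2, Adamts2, Timp2, Bmp1, Timp3 and Mmp14 (vertical axes) against the summed level of 9 fibroblast markers (horizontal axis), both in CPM on log2 axes, 1 circle per library coloured by group. Open circles, the 3 SHAM libraries high in Adipoq, lie at 2367 to 3841 CPM of the sum and at the top of most panels, and filled circles follow the sum most closely for Mmp2 (r = 0.94 over 13 libraries).

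For each member the 3 tested genes most alike were taken by r over the same 13 libraries. Mmp2 was closest to Traf6 (r = 0.94), Pkd2 (0.93) and Atp8b2 (0.93), and Adamts2 to Trim62 (0.91), Fndc1 (0.91) and B3gnt9 (0.91). Mmp14 was closest to Zeb2 (0.93), Tbc1d2b (0.92) and Olfml1 (0.90), and Mmp15 to Plpp7 (0.90), Pdgfb (0.90) and Klhl21 (0.89). Timp2 was closest to Pmp22 (0.96), Vim, which encodes the intermediate filament vimentin (0.92), and Pqlc3 (0.91), and Timp3 to Cldn22 (0.93), Eln, which encodes elastin (0.89), and Mapk7 (0.88). Timp4 was closest to Ap5s1 (0.97), Rbp7 (0.95) and Patz1 (0.90), and Timp1 to Neto2 (0.95), Vhl (0.91) and Ulk2 (0.90). Adamts1 was closest to Tti1 (0.89), Prickle1 (0.88) and Rdh14 (0.85), and Bmp1 to Tnfaip8l3 (0.88), Tspan4 (0.87) and Btbd19 (0.86). These are the highest of the r values with all 13458 tested entries over 13 libraries and are a list of names only.

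Timp genes lie inside or beside other genes in the gene table (GRCr8), and the strand setting of the counting is not given in the sources used here. Timp1 lies inside Syn1, Timp3 inside Syn3 and Timp4 inside Syn2, synapsin genes of nerve endings, and Timp2 overlaps Cep295nl. Syn1 had 0 to 10 counts per library, Syn3 0 to 9 and Cep295nl 0 to 6. Syn2 had 4 to 37 counts beside 226 to 757 for Timp4. Whether exons of these genes overlap was not tested.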

How the data were processed

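Expression in 16 right ventricle libraries (4 in each of 4 groups, from stranded mRNA kits) was analysed from the expected counts per gene symbol that the authors deposited, as whole numbers. The submitters' processing notes name RSEM 1.3.0, STAR 2.5.3a and, as genome, Rnor_6.0. The annotation, the strand setting and the rounding are not given in the sources used here. Totals were 22168110 to 34718633 counts per library. Members were matched by symbol, and 274 symbols occur more than once, none of them a member.

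R 4.3.3 and edgeR 4.0.16 were used. Scaling was by TMM, the filter on low counts was the default of filterByExpr, and a robust quasi-likelihood model of the 4 group means was fitted to all 16 libraries and all tested entries. Calls used a Benjamini-Hochberg adjusted p below 0.05 per comparison. The SE is the log2 fold change over the square root of F. Levels are CPM. The 3 SHAM libraries with Adipoq at 5 or more CPM of the total count were left out in a repeat of every fit. The alternatives were RLE size factors, DESeq2 1.42.0, no filter, replicate number as a block, only the groups compared, and each library left out in turn. A fit without the 4 libraries of any group high in Adipoq was chosen after seeing the data. Replicate numbers were not used to pair the libraries in the main fit. The procedure was tested on simulated data.

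The members and lists were chosen with earlier results of these data known. All 10 members are named; genes of the related list are named where called in at least 1 comparison, and the 3 genes most alike by r on log2(CPM + 1). Promoter sequences and gene overlaps come from RefSeq tables of GRCr8, another build than that of the counts, matched by symbol. Protein sequences were not used here.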

Additional observations from a re-analysis of the deposited data

Results flagged for a closer look

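In 5 of 40 sets of 4 libraries (10 genes in 4 groups), 1 library lay far from the other 3 of its group by the ratio of its gap to the whole range. A chance rate of about 1 set in 20 holds for independent, normally distributed values. The 40 sets share libraries, and 5 of 40 was not tested against that rate. KO SHAM 4 was the high library in 4 of them. Mmp2 was 185 CPM in KO SHAM 4 and 76.8 to 83.7 CPM in the other KO SHAM libraries. Timp3 was 98.8 CPM there against 41.3 to 49.6 CPM. Adamts2 was 44.4 CPM against 15.1 to 19.6 CPM, and Bmp1 was 22.2 CPM against 10.5 to 11.5 CPM. KO SHAM 4 is 1 of the 3 SHAM libraries high in Adipoq, and its fibroblast markers summed to 2733 CPM beside 1190 to 1294 CPM in the other KO SHAM libraries. In WT SHAM 2, another of the 3, Adamts1 was low at 66.4 CPM against 236 to 271 CPM. Among the other WT SHAM libraries is WT SHAM 3, also high in Adipoq, where Adamts1 was 271 CPM.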

How the results depend on the processing

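Of the 10 members, edgeR called 0 in each of the 6 comparisons under every alternative fitted with it, and DESeq2 called 1, Timp4 for banding in KO. Fits without the 3 SHAM libraries, and without the 4 libraries of any group, turned averaged banding to 0.32 and 0.18 for Mmp2, 0.24 and 0.19 for Timp3, 0.31 and 0.20 for Adamts2, 0.14 and 0.07 for Timp2, 0.45 and 0.38 for Timp1 and 0.13 and 0.11 for Bmp1. In WT they turned Mmp2 to 0.39 and 0.39, Timp3 to 0.28 and 0.28 and Adamts2 to 0.31 and 0.31. Timp4, Mmp14 and Adamts1 were below 0 in all alternatives for averaged banding, banding in KO and genotype in PAB. Timp1, Timp2 and Bmp1 were above 0 in all alternatives for genotype in PAB. Entries called changed more than the members' calls. DESeq2 called 1337 for averaged banding, 108 in WT, 509 in KO and 5 for genotype in PAB. In WT, 0 were called with only the groups compared, without the 3 libraries and without the 4. In KO, 155 were called with only the groups compared and 344 without the 3. With each library left out in turn, counts ranged from 356 to 964 for averaged banding, 0 to 1 in WT and 0 to 275 in KO. Their cause was not tested. As for pairing, 24 pairs of libraries with the same replicate number gave deviations correlated at -0.62 to 0.56. Of these pairs 7 were over 0.1, and 3 of 16 libraries correlated best with their own number. The labels name no shared animal, litter or batch, and these correlations cannot exclude one. A replicate block took the entries called in KO from 85 to 0 and changed no member's call. Without the 3 libraries WT SHAM rests on 2, and Timp1 on as few as 65 counts in a library, which limits the precision of both.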
